A study of Mus musculus with 6 samples.

Results

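Red pulp macrophage genes and the genes of complement C1q, 10 genes in all, were followed in CD8 T cell preparations from mouse spleen. The genes are Spic, Vcam1, Hmox1, Slc40a1, C1qa, C1qb, C1qc, Cd5l, Axl and Mertk. They were taken by symbol from the authors' full table, which lists 17744 genes, and all 10 are in it. Cells had been sorted as CD45+ CD3+ CD8a+, with a stated rate of positive cells above 90%, and RNA-seq was done on 6 libraries. Of these, 3 are controls with the genotype label wt, and 3 are labelled as irradiated with focused ultrasound, here called ultrasound libraries. The series title places the ultrasound on the spleen and names tumour suppression as the aim. The labels give no strain, age, dose or time after treatment, and for the ultrasound libraries the genotype field repeats the treatment. Nothing in them says whether each library came from a separate animal, so p-values measure the spread between these libraries, which may be technical.

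Red pulp macrophages are resident phagocytes of the spleen that remove aged red blood cells. Their identity depends on the transcription factor SpiC. Heme from the engulfed cells is broken down by heme oxygenase, encoded by Hmox1, and the iron leaves the macrophage through ferroportin, encoded by Slc40a1. C1q is the recognition part of the classical complement pathway and is assembled from A, B and C chains. It is made largely by tissue macrophages and also binds dying cells, which the receptor tyrosine kinases Axl and MerTK help to engulf. T cells are not among its usual sources.

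Defining T cell markers were high in every library. The 10 T cell markers summed to between 2735 and 2889 FPKM in controls and between 2370 and 3005 in ultrasound libraries, where FPKM is a level set relative to gene length and to sequencing depth. Cd8a alone lay between 286 and 314 FPKM in controls and between 251 and 308 in ultrasound libraries. Against this, the 10 macrophage and C1q genes together gave 209 to 384 FPKM in controls and 464 to 660 in ultrasound libraries. Every one of the 10 was detected in every library, with 364 to 11436 reads per gene and library. Libraries held 35024080 to 38113103 reads recovered from the deposited values. The share of reads from 13 mitochondrial genes was 2.05% to 2.70% in controls and 2.19% in ultrasound 1, against 0.954% and 0.937% in ultrasound 2 and 3. The part of that difference in the results was not tested, and the counts that single libraries change are given with them.

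The C1q chains are encoded by neighbouring genes. In the GENCODE M21 annotation of GRCm38, the sequence that mm10 denotes, C1qb (chr4:136880129-136886187), C1qc (chr4:136889804-136893065) and C1qa (chr4:136895917-136898803) follow each other on the minus strand of chromosome 4. Promoter windows of RefSeq (build GRCm38.p6; 250 bases before to 50 after the start) were given for 6 of the 10 genes, C1qb, C1qc, Spic, Cd5l, Axl and Mertk. Each was searched on both strands for motifs of factors that work in macrophages. The motif GAGGAAG, a core with flanks of the macrophage factor PU.1, was in 3 of the 6 windows and in 13.6% of 32851 windows of the same length. The antioxidant response element TGACNNNGC, read by NRF2 and BACH1, was in the window of C1qb and in 12.4% of all. The site TGCTGAC of large MAF factors, the E-box CACGTG and the AP-1 site TGAGTCA were in none of the 6, against 4.67%, 7.15% and 5.2% of all windows. The 250 bases before the RefSeq start are shown for the 4 genes with a match. They run 5′ to 3′ along the gene, with the match in capitals. The match reads as the reverse complement of the motif in each of these genes. Such matches are of letters and not measured binding. RefSeq starts can differ from those of GENCODE. The 250 bases before the RefSeq start lie partly inside the GENCODE span for C1qc and wholly inside it for Spic.
C1qc (chr4:136892915-136893164, minus strand): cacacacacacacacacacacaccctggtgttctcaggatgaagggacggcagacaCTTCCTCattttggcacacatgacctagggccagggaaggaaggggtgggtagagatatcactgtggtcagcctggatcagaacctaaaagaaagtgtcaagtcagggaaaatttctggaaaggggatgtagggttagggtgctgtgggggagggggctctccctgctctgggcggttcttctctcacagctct
C1qb (chr4:136886201-136886450, minus strand): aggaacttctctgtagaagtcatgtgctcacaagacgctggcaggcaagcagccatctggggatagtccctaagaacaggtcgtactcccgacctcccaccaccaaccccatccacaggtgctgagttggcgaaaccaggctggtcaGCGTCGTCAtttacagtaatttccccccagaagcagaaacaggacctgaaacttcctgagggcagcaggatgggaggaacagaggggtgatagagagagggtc
Cd5l (chr3:87357631-87357880, plus strand): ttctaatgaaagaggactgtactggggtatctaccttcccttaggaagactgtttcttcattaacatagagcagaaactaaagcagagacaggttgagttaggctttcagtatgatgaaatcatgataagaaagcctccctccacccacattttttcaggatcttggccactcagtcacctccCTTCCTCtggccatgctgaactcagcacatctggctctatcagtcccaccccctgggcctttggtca
Axl (chr7:25788734-25788983, minus strand): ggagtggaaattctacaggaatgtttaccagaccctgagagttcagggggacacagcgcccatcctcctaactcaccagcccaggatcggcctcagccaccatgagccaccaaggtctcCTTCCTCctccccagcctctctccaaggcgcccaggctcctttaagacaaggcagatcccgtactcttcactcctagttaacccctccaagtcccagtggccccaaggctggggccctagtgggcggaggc

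All 10 genes had higher mean levels in ultrasound than in control libraries, with log2 changes from 0.50 for Cd5l to 1.64 for Hmox1. Hmox1, Slc40a1 and Mertk rose past an adjusted p of 0.05, and none of the 10 fell. Changes and p-values come from limma on log2(FPKM + 1), adjusted by the Benjamini-Hochberg method over 10655 genes. In the same test 6.55% of all genes were called higher and 1.56% lower. Of the 10 genes, 9 had an unadjusted p under 0.05 with the mean higher in ultrasound libraries, against 22.6% of all genes. The median log2 change was 0.84 over the 10 genes and 0.09 over all genes tested. Every ultrasound library lay above every control for 8 of the 10 genes, against 25.9% of all genes. C1qa and Cd5l were the exceptions. In bulk RNA a change in the number of macrophages and a change in the RNA of each cell cannot be told apart.

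**Figure D1:**
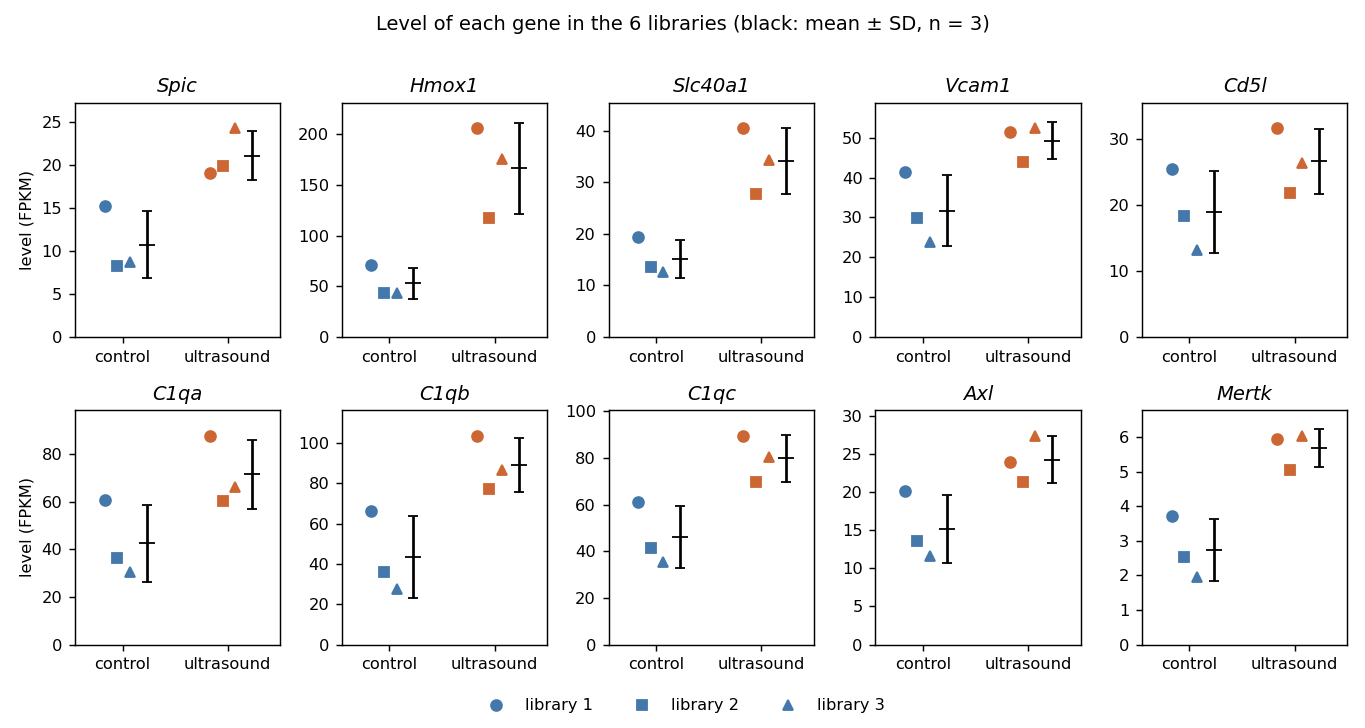
Level in FPKM of each of the 10 genes (vertical axes, each starting at 0) in the 3 control and 3 ultrasound libraries, with 1 point per library, the marker shape giving its number, and black marks for the mean ± SD (n = 3). Control 1 is the highest control in all 10 panels, and only C1qa and Cd5l have a control that reaches into the ultrasound points.

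Heme breakdown and iron export had the largest log2 changes of the 10, with C1qb close behind. Hmox1 (NCBI Gene 15368; chr8:75093621-75100589, plus strand) had 70.7, 43.7 and 43.7 FPKM in control 1, 2 and 3 and 206, 117 and 175 FPKM in ultrasound 1, 2 and 3. The lowest ultrasound library was well above the highest control. Its mean went from 52.7 ± 15.6 to 166 ± 45.2 FPKM (SD, n = 3 each) and the fitted log2 change was 1.64 ± 0.26 (SE; adjusted p 0.0304 by limma). Slc40a1 (NCBI Gene 53945; chr1:45908068-45926523, minus strand) had 19.4, 13.5 and 12.6 FPKM in controls and 40.6, 27.7 and 34.4 FPKM in ultrasound libraries. Again the groups did not overlap, and in both genes ultrasound 1 was highest and ultrasound 2 lowest of the treated libraries. The mean of Slc40a1 went from 15.2 ± 3.73 to 34.2 ± 6.43 FPKM (SD, n = 3 each) and the fitted log2 change was 1.13 ± 0.20 (SE; adjusted p 0.0311 by limma).

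SpiC is the factor on which red pulp macrophages depend. Spic (NCBI Gene 20728; chr10:88674772-88685015, minus strand) had 15.2, 8.21 and 8.73 FPKM in control 1, 2 and 3 and 19.1, 19.9 and 24.3 FPKM in ultrasound 1, 2 and 3. The groups did not overlap, but control 1 lay closer to ultrasound 1 than to the other controls. Its fitted log2 change, 0.96 ± 0.23 (SE), had a limma adjusted p of 0.0504, just short of the threshold. It was 0.0471 with voom, which models reads, and 0.0786 and 0.0712 with median-of-ratios and upper-quartile scaling. Over all the alternatives it ran from 0.0147 without control 1 to 0.228 with a term for ultrasound 2 and 3.

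C1q chains were the most abundant of the genes after Hmox1, and none of them passed the threshold in limma. In the authors' deposited table C1qb and C1qc had q of 0.0426 and 0.0423, and C1qa of 0.145. C1qa (NCBI Gene 12259), which encodes the A chain, had 60.6, 36.3 and 30.4 FPKM in controls and 87.8, 60.4 and 66.2 FPKM in ultrasound libraries. Control 1 and ultrasound 2 were level, so the groups overlapped. C1qb (NCBI Gene 12260), the B chain, had 66.3, 35.9 and 27.6 FPKM in controls and 104, 77.3 and 86.4 FPKM in ultrasound libraries. C1qc (NCBI Gene 12262), the C chain, had 60.9, 41.4 and 35.5 FPKM in controls and 89.6, 69.6 and 80.2 FPKM in ultrasound libraries. In these chains the libraries kept 1 order, with ultrasound 1 highest, then ultrasound 3 and ultrasound 2, and control 1 above control 2 and control 3. Log2 changes were 0.78, 1.11 and 0.81 for the A, B and C chains, with standard errors 0.26, 0.30 and 0.20 and limma adjusted p 0.109, 0.0694 and 0.0584. Their 95% intervals, before adjustment, ran from 0.15 to 1.41, from 0.39 to 1.84 and from 0.33 to 1.30.

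The chains stayed close to each other within each library. The log2 ratio of C1qa to C1qc lay between -0.22 and -0.01 in controls and between -0.28 and -0.03 in ultrasound libraries. That of C1qa to C1qb lay between -0.13 and 0.14 in controls and between -0.38 and -0.24 in ultrasound libraries, so C1qb was the highest chain in each ultrasound library. C1qb was above C1qc in control 1 as well, by 0.12, but below it in control 2 and control 3, by log2 ratios of -0.21 and -0.36. These ratios were described and not tested.

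Uptake receptors came next, and both were higher in ultrasound libraries, with 1 of the pair past the threshold. The difference between the 2 receptors was not tested. Mertk (NCBI Gene 17289; chr2:128698956-128802894, plus strand) encodes a receptor through which macrophages engulf dying cells, and was the lowest of the 10 in level. It had 3.74, 2.53 and 1.96 FPKM in controls and 5.96, 5.05 and 6.05 FPKM in ultrasound libraries. The groups did not overlap, and the fitted log2 change was 0.86 ± 0.18 (SE; adjusted p 0.0420 by limma). With median-of-ratios and upper-quartile scaling Mertk no longer passed, at adjusted p 0.0629 and 0.0571. Axl (NCBI Gene 26362; chr7:25757273-25788705, minus strand), its relative, had 20.2, 13.5 and 11.6 FPKM in controls and 24.0, 21.4 and 27.4 FPKM in ultrasound libraries. Control 1 lay just under ultrasound 2, and the fitted log2 change was 0.68 ± 0.20 (SE; adjusted p 0.0831 by limma).

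Vcam1 (NCBI Gene 22329; chr3:116109949-116129688, minus strand) encodes an adhesion molecule that red pulp macrophages share with endothelium and stroma. It had 41.5, 29.8 and 23.8 FPKM in controls and 51.4, 44.0 and 52.5 FPKM in ultrasound libraries, and the fitted log2 change was 0.65 ± 0.20 (SE; adjusted p 0.0860 by limma). Cd5l (NCBI Gene 11801; chr3:87357881-87371073, plus strand) encodes a secreted macrophage protein also called AIM. It had 25.5, 18.2 and 13.1 FPKM in controls and 31.6, 21.7 and 26.4 FPKM in ultrasound libraries. Control 1 exceeded ultrasound 2, and the fitted log2 change was 0.50 ± 0.24 (SE; adjusted p 0.204 by limma). Its 95% interval before adjustment, from -0.08 to 1.08, was the only one of the 10 to include 0.

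**Figure D2:**
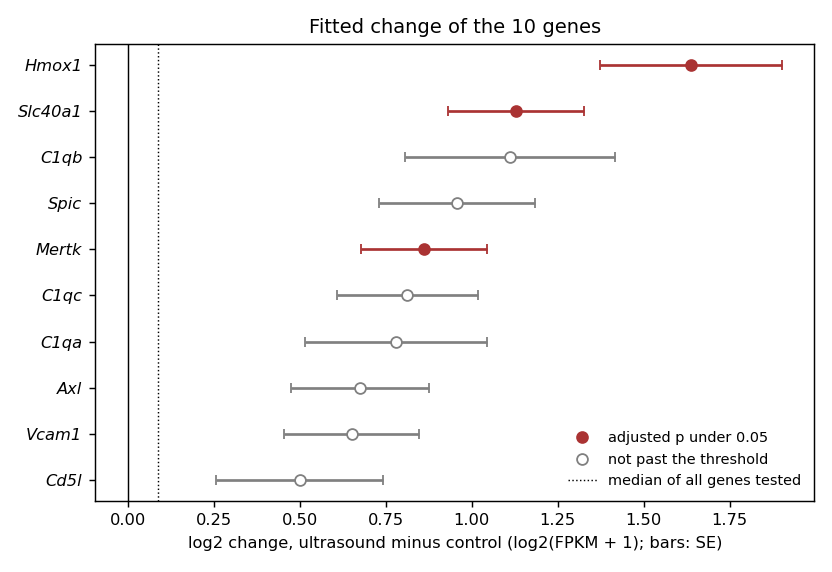
Log2 change of each gene, ultrasound minus control on the log2(FPKM + 1) scale (horizontal axis), with its standard error from limma. Filled red points (Hmox1, Slc40a1 and Mertk) had an adjusted p under 0.05, and all 10 points lie to the right of the dotted median of all genes tested at 0.09.

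Single libraries decided how many of the 10 passed. Control 1 had the highest control level for all 10 genes, at 1.49 to 2.09 times the mean of control 2 and control 3. Without control 1, 9 of the 10 passed, with Cd5l the exception, where 4.84% of all genes were called higher. Without ultrasound 1, 5 passed, namely Spic, Hmox1, Slc40a1, C1qc and Mertk, but 33.8% of all genes were then called higher. Without control 2, control 3, ultrasound 2 or ultrasound 3 none of the 10 passed in limma, and no other gene tested did. Unadjusted p was under 0.05 for 8, 8, 9 and 9 of the 10 there, where 14.2%, 15.2%, 14.1% and 14.2% of all genes were higher at that threshold. At an adjusted p under 0.1, 8 of the 10 passed, where 14.3% of all genes were called higher. Of the 10, 6 had q under 0.05 in the authors' deposited table, namely Spic, Hmox1, Slc40a1, C1qb, C1qc and Mertk, where 7.3% of its genes were called higher. With ultrasound 2 and 3 given a term of their own, 1 library, ultrasound 1, was set against the controls, and its spread was assumed to be that of the other libraries. There limma called 0 of the 10, where 0.967% of all genes were called higher, and 6 had an unadjusted p under 0.05, where 16.1% of all genes were higher. Log2 changes there ran from 0.67 for Axl to 1.98 for Hmox1.

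Levels ranked in nearly the same order in both groups. In controls Hmox1 led with a mean of 52.7 FPKM, followed by C1qc, C1qb and C1qa at 45.9, 43.3 and 42.4. Vcam1 and Cd5l came next at 31.7 and 18.9, then Slc40a1 and Axl at 15.2 and 15.1, Spic at 10.7 and Mertk at 2.74. From Hmox1 to Spic, each gene's control range overlapped that of the next, and Mertk alone lay clear below its neighbour. In ultrasound libraries Hmox1 stood clear of C1qb, the next in order, at 166 against 89.1 FPKM. C1qa and Vcam1, Vcam1 and Slc40a1, and Spic and Mertk were also separated there, and Slc40a1 stood above Cd5l instead of below it.

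Ratios within a library do not depend on how libraries were scaled, and 18 were compared, each with an exact two-sided permutation test. With 3 libraries against 3, the smallest p such a test can give is 0.1, so none could pass 0.05. These ratios were chosen after the levels had been seen. The log2 ratio of Hmox1 to C1qc was 0.22, 0.08 and 0.30 in controls and 1.202, 0.75 and 1.13 in ultrasound libraries (exact permutation p 0.1, 0.18 after Benjamini-Hochberg adjustment). Against C1qa, Hmox1 was also higher in every ultrasound library, whereas against C1qb control 3 overlapped ultrasound 2. Slc40a1 was higher relative to C1qa and C1qc in every ultrasound library, with mean differences of 0.39 and 0.36, but its ratio to C1qb differed by 0.05 and overlapped (exact permutation p 0.8, also 0.8 adjusted). Spic ratios to the chains overlapped in all 3 cases, with differences from -0.11 to 0.23. Mertk was higher relative to C1qc in every ultrasound library and overlapped against C1qa and C1qb.

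**Figure D3:**
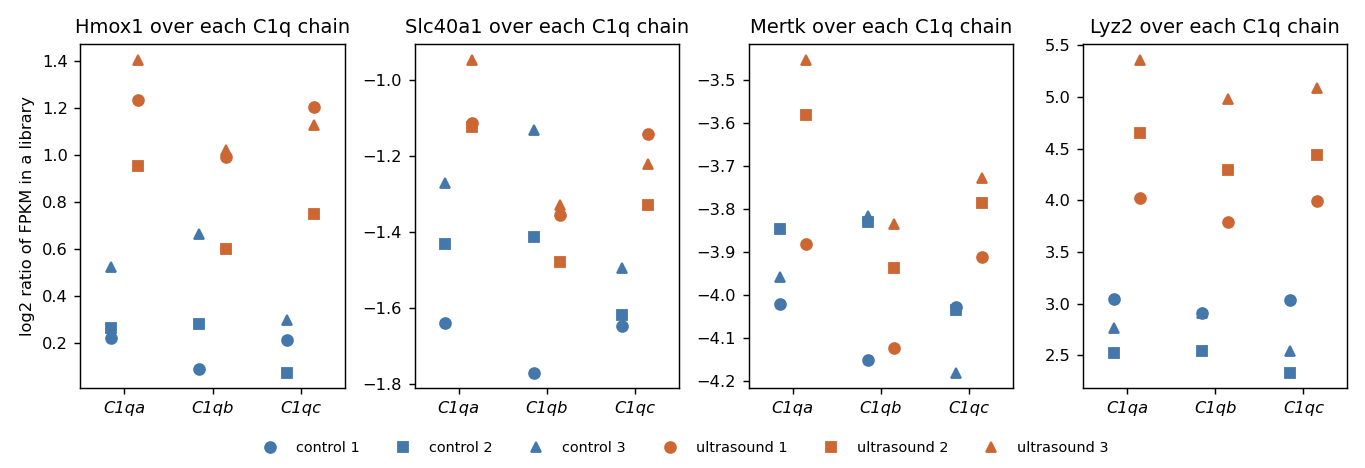
Log2 ratio of the FPKM of Hmox1, Slc40a1, Mertk and Lyz2 to that of each C1q chain (vertical axes, with a range of their own in each panel), 1 point per library, controls in blue and ultrasound libraries in orange. Hmox1 over C1qc is 0.30 or lower in controls and 0.75 or higher in ultrasound libraries, and Lyz2 over each chain is higher in every ultrasound library.

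Further macrophage genes were called higher in part. Of 19 further macrophage identity genes, 17 were tested, 7 were called higher and 0 lower, and the median log2 change was 1.02. Monocyte markers, given further below, had a median log2 change of 2.05. The part of monocytes in the 7 calls was not tested. Treml4, a receptor of myeloid cells, rose from 9.30 ± 4.44 to 42.8 ± 19.4 FPKM (SD over 3 libraries; adjusted p 0.0338 by limma). Fcgr4, an activating Fc receptor, rose by 1.88 and Mpeg1, a pore-forming protein of phagocytes, by 1.72 on the log2 scale. Csf1r, the receptor for the macrophage growth factor CSF1, had 65.9, 38.8 and 30.5 FPKM in controls and 102, 135 and 200 FPKM in ultrasound libraries. Its highest library was ultrasound 3, whereas that of the C1q chains was ultrasound 1. Acp5, a phosphatase of red pulp macrophages, did not pass, with a log2 change of 0.13 and limma adjusted p 0.380.

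Adgre1, Cd163 and Maf are of the same list, did not pass, and were picked after their values were seen. Adgre1, which encodes F4/80, lay between 8.01 and 14.2 FPKM in controls and between 14.5 and 29.5 in ultrasound libraries (adjusted p 0.0718 by limma). Cd163, the receptor for hemoglobin bound to haptoglobin, lay between 1.26 and 1.99 FPKM in controls and between 2.32 and 2.69 in ultrasound libraries (adjusted p 0.0791 by limma). Maf, a transcription factor that macrophages and T cells express, had 13.9, 14.0 and 12.5 FPKM in controls and 19.9, 6.52 and 8.15 in ultrasound 1, 2 and 3 (log2 change -0.36; adjusted p 0.502 by limma). It was the only 1 of the 17 tested genes with a log2 change under 0, and for 13 of the 17 the lowest ultrasound level exceeded the highest control, against 25.9% of all genes. Of 5 genes of marginal zone macrophages, 2 were tested and 0 called by limma or voom, with 1 at an unadjusted p under 0.05 and 1 of the 5, Siglec1, with q under 0.05 in the authors' deposited table. Marco, a scavenger receptor there, had 5.71, 3.37 and 1.74 FPKM in controls. It had 7.19 in ultrasound 1 and 2.02 or less in ultrasound 2 and 3, so the groups overlapped. Siglec1 had 1.11, 1.17 and 0.708 FPKM in controls and 2.11, 1.91 and 3.67 in ultrasound libraries, without overlap. The log2 change of Siglec1 was 0.81, short of the threshold (adjusted p 0.0589 by limma).

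Heme and iron genes formed a list of 22, of which 18 were tested, 7 called higher and 0 lower, with a median log2 change of 0.37. Hp, encoding haptoglobin, rose by 2.63 on the log2 scale, Slc11a1, an iron transporter of phagosomes, by 1.97, and Trf, encoding transferrin, by 1.14. Of the 18, 14 had a log2 change above 0, against 6569 of all 10655. Every ultrasound library lay above every control for 9, against 25.9% of all genes, and below for 2, against 955 of 10655. The 2 were Tfrc, encoding the transferrin receptor (log2 change -1.11; adjusted p 0.0921 by limma), and Slc11a2 (log2 change -0.22; adjusted p 0.157 by limma). Neither passed, and both were picked after their values were seen. Ftl1, the light chain of the iron store ferritin, rose from 650 ± 40.9 to 1152 ± 168 FPKM (SD over 3 libraries; adjusted p 0.0304 by limma), and Fth1, the heavy chain, had a log2 change of 0.20 (adjusted p 0.268). The difference between the chains was not tested. Ferritin genes have processed copies in the genome, so reads shared with these leave their values uncertain.

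Complement genes other than C1q numbered 22, of which 21 were in the table, 15 were tested, 5 were called higher and 0 lower, with a median log2 change of 1.02. C3, the central component of the cascade, rose from 5.86 ± 2.71 to 27.6 ± 8.61 FPKM (SD over 3 libraries; adjusted p 0.0304 by limma). Itgam, a chain of complement receptor CR3, rose by 2.18 and Cfp, encoding properdin, by 1.02 on the log2 scale. Lrp1, a receptor that helps clear dying cells, rose from 5.71 ± 2.75 to 25.6 ± 8.78 FPKM (SD, n = 3 each). Calr, the most abundant of the list and a partner of C1q on dying cells, did not pass. Of 24 genes of apoptotic cell uptake, 18 were tested, 5 called higher and 0 lower, with a median log2 change of 0.62. Anxa1, Itgb5 and Scarb1 rose by 2.05, 1.62 and 1.30. The cytoskeletal regulators Dock2 and Rac1, which T cells also express, did not pass.

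Counts of genes called in these lists, here in either direction, moved with single libraries as well. Without control 2, control 3, ultrasound 2 or ultrasound 3 they were all 0 in limma. Without ultrasound 1 they were 15 further macrophage genes, 13 heme and iron genes, 9 complement genes and 8 uptake genes. In that fit 3544 of all 10497 genes tested were called higher and 2084 lower. Without control 1 the list counts were 9, 5, 6 and 5, where 511 of all 10568 genes tested were called higher and 60 lower. Median-of-ratios scaling gave 3, 5, 3 and 3, and a term for ultrasound 2 and 3 gave 0, 1, 1 and 0.

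Markers of monocytes and neutrophils, cells that a sort can hold, moved along with the 10 genes. Other cell lists, given further below, did not all move this way. Of 12 monocyte markers, all were tested, 7 were called higher and 0 lower, with a median log2 change of 2.05, and their summed level was 661 to 1026 FPKM in controls and 2365 to 3841 in ultrasound libraries. Lyz2 rose by 2.69, Ace by 2.37 and F13a1 by 2.31 on the log2 scale. Ly6c2, which CD8 T cells also express, did not pass, with a log2 change of 0.17. Ly6c2 had 324, 369 and 418 FPKM in controls and 285, 504 and 495 in ultrasound libraries. It thus made up a large part of the summed monocyte level in controls. Of 12 neutrophil markers, all were tested, 4 were called higher and 0 lower, with a median of 1.91 and a summed level of 199 to 601 FPKM in controls and 698 to 2476 in ultrasound libraries. No monocyte or neutrophil marker was at 0 in any library. Calls in either direction were 7 and 6 without control 1 and 10 and 9 without ultrasound 1. Without any other single library they were 0 and 0 in limma. The part of these cells in the changes of the 10 genes was not tested.

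Lyz2, an enzyme of monocytes, neutrophils and macrophages, was higher relative to each C1q chain in every ultrasound library. Its log2 ratio to C1qc was 3.03, 2.33 and 2.54 in controls and 3.997, 4.44 and 5.08 in ultrasound libraries, and the groups were likewise apart for C1qa and C1qb (exact permutation p 0.1 and adjusted p 0.18 for each chain). The ratio of Csf1r to C1qc was between -0.22 and 0.11 in controls and 0.18, 0.96 and 1.32 in ultrasound 1, 2 and 3, with the same p-values. Against C1qb the Csf1r ratio of ultrasound 1, at -0.03, lay just below the lowest control, at -0.01, so the groups overlapped.

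Libraries differed in which lists they raised. Relative to the control mean, the median over the 10 genes was 0.95, 0.67 and 0.90 in ultrasound 1, 2 and 3, so these libraries were closer to each other than on most marker lists. Neutrophil markers lay at 2.53, 1.42 and 1.46, and B cell markers at -0.58, 1.63 and 1.47. NK cell markers lay at -0.16, 1.77 and 1.24, and erythroid markers at 0.13, -0.45 and -0.64. Control 1 was at 0.45 for the 10 genes and at 0.75 for both monocyte and neutrophil markers, and 0.40 for B cell markers. Its T cell markers were at -0.06.

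**Figure D4:**
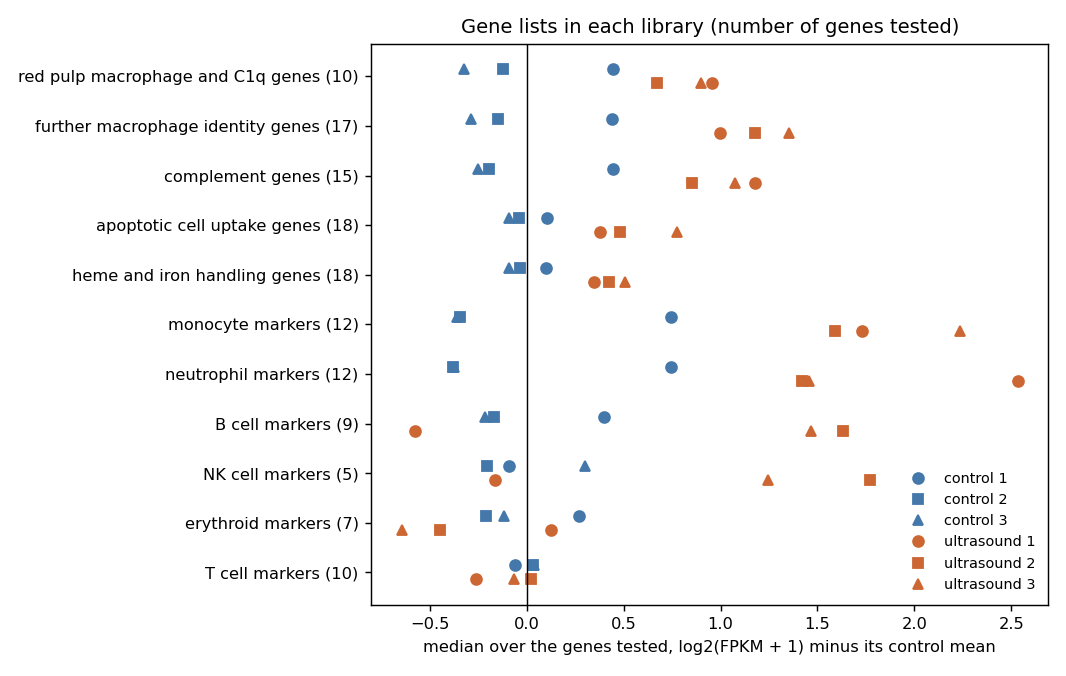
Median over the tested genes of each list (number in brackets) of log2(FPKM + 1) minus its control mean (horizontal axis), 1 point per library, controls in blue and ultrasound libraries in orange. The 10 red pulp macrophage and C1q genes lie at 0.67 to 0.95 in the ultrasound libraries, while B cell and NK cell markers separate ultrasound 1 from ultrasound 2 and 3.

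Of the other cell lists, B cell markers had 0 of 9 tested genes called by limma, erythroid markers 0 of 7, endothelial markers 0 of 1 and T cell markers 0 of 10, and voom gave the same counts. The authors' deposited table had q under 0.05 for 1 T cell marker and none of the others. At an unadjusted p under 0.05 they had 0, 2, 0 and 1, and without ultrasound 1 limma called 9, 3, 1 and 3, in either direction. NK cell markers had 1 of 5 called, Klrb1c, and dendritic cell markers 1 of 6, Clec10a, both higher. Without ultrasound 1 both lists had 5 called, in either direction. Without control 2, control 3, ultrasound 2 or ultrasound 3 both had 0. Their summed levels in controls and in ultrasound libraries were 245 to 382 and 184 to 969 FPKM for B cells, 90.7 to 142 and 64.4 to 115 for erythroid cells, and 24.3 to 33.3 and 28.2 to 209 for NK cells. Dendritic cell markers summed to 208 to 255 and 170 to 209 FPKM, with Ccr7 and Itgae the highest in level. The sum did not follow most tested genes of that list, whose median log2 change was 0.58. Relative to the control mean the list median was -0.46, 0.92 and 1.03 in ultrasound 1, 2 and 3. Vwf and Cdh5, markers of endothelium, which also expresses Vcam1, had 25 to 67 and 13 to 21 reads in controls, 55 and 6 in ultrasound 1, 160 and 83 in ultrasound 2, and 199 and 69 in ultrasound 3, and their part in the Vcam1 values was not tested. Endothelial markers other than Pecam1, which T cells share, and fibroblast markers were not tested, the 7 fibroblast and reticular markers in the table summing to 0.236 to 0.356 FPKM in controls and 0.389 to 1.001 in ultrasound libraries. Tek, Lyve1, Tie1, Emcn, Pdgfra, Col1a2, Madcam1 and Dcn were at 0 in at least 1 library.

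Genes whose levels over the 6 libraries were most like the mean of the C1q chains were found by Pearson correlation of log2(FPKM + 1). The 10 closest outside the set were Stx7, Cuedc2, Pla2g7, Tmed10-ps, Sel1l, Zeb2, Zfp784, Nucb2, Cd300lf and Serpina3f, with coefficients from 0.988 to 0.997. Pla2g7, a phospholipase secreted by macrophages, had 18.5, 6.61 and 5.11 FPKM in controls and 37.1, 22.1 and 30.6 in ultrasound libraries. Cd300lf, a myeloid receptor for lipids of dying cells, had 18.5, 7.45 and 7.20 FPKM in controls and 41.6, 22.1 and 27.3 in ultrasound libraries. In all 10 closest genes, as in the C1q chains, control 1 was the highest control and ultrasound 1 the highest ultrasound library. Picking genes for likeness to the chains favours this shared order. Among the other 7 genes of the set the coefficient ran from 0.923 for Spic to 0.983 for Vcam1. The 6 points share the split between groups, and the genes were picked from 10655, so the coefficients are a description of these libraries.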

How the data were processed

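Values were read from the authors' full table of the comparison. Its FPKM columns were deposited by the authors for each library, per the file headers. Means of DESeq2 normalized counts (a signal), fold change (a ratio), log2 fold change, p-value and q-value columns were also made by the authors, per the file headers. The submitters' processing notes name HISAT2, HTSeq, DESeq2, R 3.2.0 and mm10. Groups and replicate numbers came from sample titles.

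A gene entered the test with FPKM of 1 or more in 3 libraries. The test was limma 3.58.1 under R 4.3.3, with the trend and robust options, on log2(FPKM + 1), two-sided, with Benjamini-Hochberg adjustment. Fold changes on this scale understate those of low genes. All 10 members passed this filter in both groups. Whole reads were recovered from the FPKM columns and the group means: of 42754 values up to 200 reads, 100% lay within 0.05 of a whole number. Reads carry no molecular identifiers. The fit and the recovery were tested on simulated data. Members and gene lists were chosen with earlier results of these data known. The rule for naming genes took the members and the 10 most like C1q. It also took, of each list, up to 3 with the largest called change and the 2 highest in level. Not every gene it took is named in the text, and none of the neutrophil list is. Cd8a, a marker of the sort, Adgre1, Cd163, Maf, Tfrc, Slc11a2, Vwf, Cdh5 and markers at 0 were named outside this rule, after their values were seen. Cfd, Ccl19, Ccl21a and Lum were not analysed here. Alternatives covered scaling, filters, pseudocount, the fit, voom, a replicate block, the threshold, the authors' values, a term for ultrasound 2 and 3 and each library left out. Ratios used scipy 1.17.1 in Python 3.11.15.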

Additional observations from a re-analysis of the deposited data

How the results depend on the processing

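All 10 genes kept a positive log2 change under each of 16 alternatives, from 0.27 for Cd5l without control 3 to 1.98 for Hmox1 with a term for ultrasound 2 and 3. No filter, 10 reads in every library, the non-robust fit and the replicate block leave the log2 change itself as it was. These alternatives therefore could not change its sign. The count of 3 genes was 0 with no filter on low values, 0 with the replicate block and 0 with the term for ultrasound 2 and 3. In those limma fits 9, 10 and 6 of the 10 had an unadjusted p under 0.05, where 17.4%, 22.0% and 16.1% of all genes were higher at that threshold. It was 8 at an adjusted p under 0.1 and 6 in the authors' deposited table. It lay between 2 and 4 with other scalings, 10 reads in every library, a pseudocount of 0.1, a non-robust fit and voom. In those fits 2.64% to 6.73% of all genes were called higher. Leaving out one library gave from 0 to 9, where 0% to 33.8% of all genes were called higher, with 4.84% at the count of 9.

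Over all genes the count of 864 became 468 with median-of-ratios size factors, 0 with no filter (4216 at an unadjusted p under 0.05), 0 with the replicate block (3249 at an unadjusted p under 0.05) and 150 with the term for ultrasound 2 and 3. It was 1962 at an adjusted p under 0.1 and 2179 in the authors' deposited table, and from 0 to 5628 when one library was left out. Of the calls, 80.8% were higher in the main analysis, 60.0% with median-of-ratios and 63.1% with upper-quartile factors, which moved the median of all genes from 0.09 to -0.02 and -0.01. Over all genes tested, same-numbered libraries correlated at -0.04, 0.05 and 0.06 in their deviations from the group mean. The sample titles do not say whether the numbers pair libraries, and these values do not settle it. Fewer libraries were fitted when one was left out, and the other causes were not tested. The 10 genes had 364 reads or more in each library and the effect of depth on calls was not tested.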
